A study of Mus musculus with 95 samples.

Results

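The immunoglobulin constant genes other than the alpha gene encode the invariant parts of IgM and IgG heavy chains and of the kappa and lambda light chains. They were taken by symbol from a table of counts per gene, as Ighm, Ighg1, Ighg2b, Ighg2c, Ighg3, Igkc, Iglc1, Iglc2 and Iglc3, which are 9 of the 55401 genes in the table. The table covers 95 poly(A) RNA-seq libraries from C57BL/6J mice, made from white adipose tissue (WAT), liver, kidney and cortex. TLS mice had spent 3 months in a torpor-like state, with the label "Stim" read here as TLS. The other groups are control mice ("Con") and time-0 mice ("T0"). Per the file header, TLS and control mice were 205 days old and time-0 mice were younger, so in every comparison with time-0 mice age and group cannot be told apart. There were 8 animals in a group, of which 4 carry the letter F and 4 the letter M, and the same animals gave all 4 tissues. Control WAT is represented by 7 libraries, since that of animal 9BA4 was not analysed here. The labels and file do not say how TLS was induced, and they name no transgene or allele.

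A B cell first makes the mu heavy chain, displays it as surface IgM, and can later exchange the mu constant region for a gamma, epsilon or alpha one by class switching. Each heavy chain pairs with a kappa or a lambda light chain, and in mice kappa chains predominate. Resting B cells hold modest amounts of constant-region RNA and plasma cells very large amounts. In bulk tissue, therefore, fewer antibody-producing cells and less RNA per cell cannot be told apart. Each tissue was checked by 5 of its own marker genes, such as Snap25 for cortex, Umod for kidney, Alb for liver and Adipoq for WAT, and all 5 were highest in their own tissue in every case.

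The gamma genes are close copies of each other, and their hinge, the flexible stretch between the antigen-binding arms and the stem, is where they differ in length and in cysteines. The hinge exons are shown because reads can be assigned to a gamma gene only where the copies differ. All lie on the minus strand of chromosome 12 in GRCm38 and are written 5′ to 3′, with in-frame cysteine codons in capitals. Their positions are chr12:113329844-113329882 for Ighg1, chr12:113307261-113307326 for Ighg2b, chr12:113288263-113288325 for Ighg2c and chr12:113360529-113360576 for Ighg3.
Ighg1: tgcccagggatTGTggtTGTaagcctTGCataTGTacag
Ighg2b: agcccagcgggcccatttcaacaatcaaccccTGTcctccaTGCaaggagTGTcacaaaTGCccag
Ighg2c: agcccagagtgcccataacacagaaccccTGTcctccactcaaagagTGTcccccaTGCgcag
Ighg3: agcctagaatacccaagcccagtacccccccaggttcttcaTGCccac
These exons hold 4 cysteine codons in Ighg1, 4 in Ighg2b, 3 in Ighg2c and 1 in Ighg3. Ighg2b and Ighg2c were the most alike pair of gamma genes: 77.3% of aligned positions matched in the hinge, 94.2% in the next exon (the CH2 domain) and 85.6% over the secreted coding region. The hinges of Ighg1 and Ighg2b matched at 43.9% of positions. Of the 1276 windows of 50 bases in Ighg2c exons, 70 also occur in Ighg2b, and 5.49% were therefore shared with another gene.

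The lambda genes pose the same difficulty. The last 120 coding bases are shown for Iglc2 at chr16:19198539-19198658, Iglc3 at chr16:19065368-19065487 and Iglc1 at chr16:19061755-19061874, all on the minus strand, with capitals where Iglc3 or Iglc1 differs from Iglc2.
Iglc2: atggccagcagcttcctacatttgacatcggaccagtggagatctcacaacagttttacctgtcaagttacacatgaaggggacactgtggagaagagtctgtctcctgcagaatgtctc
Iglc3: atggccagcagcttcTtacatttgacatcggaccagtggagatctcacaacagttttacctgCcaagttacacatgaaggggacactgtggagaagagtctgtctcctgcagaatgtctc
Iglc1: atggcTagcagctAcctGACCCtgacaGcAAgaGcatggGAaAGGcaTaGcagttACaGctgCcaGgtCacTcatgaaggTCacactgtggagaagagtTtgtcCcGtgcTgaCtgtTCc
Iglc3 differs from Iglc2 at 2 of these bases and Iglc1 at 34, and the whole coding regions of Iglc2 and Iglc3 matched at 96.2% of positions. Of the 50-base windows of Iglc3, 22.3% occur in another gene, against 7.65% for Iglc2 and 0 for Iglc1, so values of Iglc2 and Iglc3 are uncertain to that extent. Ighm, at chr12:113418558-113422730, and Igkc, at chr6:70726435-70726966, shared no window with another gene. Igkc lies within the span of the lincRNA gene Gm30211, and Iglc1 and Iglc3 lie within that of 2010309G21Rik on the opposite strand. Strand cannot separate Igkc from Gm30211, but their transcripts shared no 50-base window. Iglc1 shared none with 2010309G21Rik, while Iglc3 shared 47 of its 403 windows. Whether counting used the strand is not given, so reads of Iglc3 in those windows cannot be told apart from reads of 2010309G21Rik.

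Total counts ran from 4031533 to 29269511 per library, both in liver. Values below are CPM (counts scaled to a common library size), and group comparisons are edgeR quasi-likelihood tests fitted on all genes of a tissue with sex as a covariate. A gene was called when its Benjamini-Hochberg adjusted p over all genes tested was below 0.05. A gene was tested where it passed a low-count filter of about 10 counts. The filter asked for this in as many libraries as the smallest group holds, counted over all groups of the tissue. That left 3 members in cortex (Ighm, Ighg2c, Igkc), 5 in kidney (Ighm, Ighg2b, Ighg2c, Igkc, Iglc1), 4 in liver (Ighm, Ighg2b, Igkc, Iglc1) and 8 in WAT (all but Ighg1). The remaining members were measured but too low for a test in that tissue. TLS and control libraries carry library numbers that do not overlap, so an effect of library order and TLS cannot be told apart.

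Libraries of TLS animal A5DA stood apart in marker genes of other cells. They also had the highest value among TLS animals for 5 of 9 members in kidney, 6 of 9 in liver and 4 of 9 in WAT. Other animals led their groups as often: control animal 5A66 was the highest control for 7 of 9 members in liver, control animal 983B for 5 of 9 in kidney and in WAT, and time-0 animal T0_6 for 5 of 9 in kidney. This was noticed after the values were seen. In WAT the summed level of 8 lymph node and lymphoid stroma genes was 575 CPM in A5DA, against at most 54.98 CPM in the other TLS animals, and the sum of 10 T cell genes was 275 CPM, the highest of the TLS animals. Its myeloid gene sum was 8019 CPM in WAT, 1468 CPM in liver and 813 CPM in kidney, where the next TLS animals reached 1224, 164 and 164 CPM. The part of these cells in the results was not tested. The main member results that A5DA changes are given with and without it, while results of marker gene lists are given only with it.

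**Figure D1:**
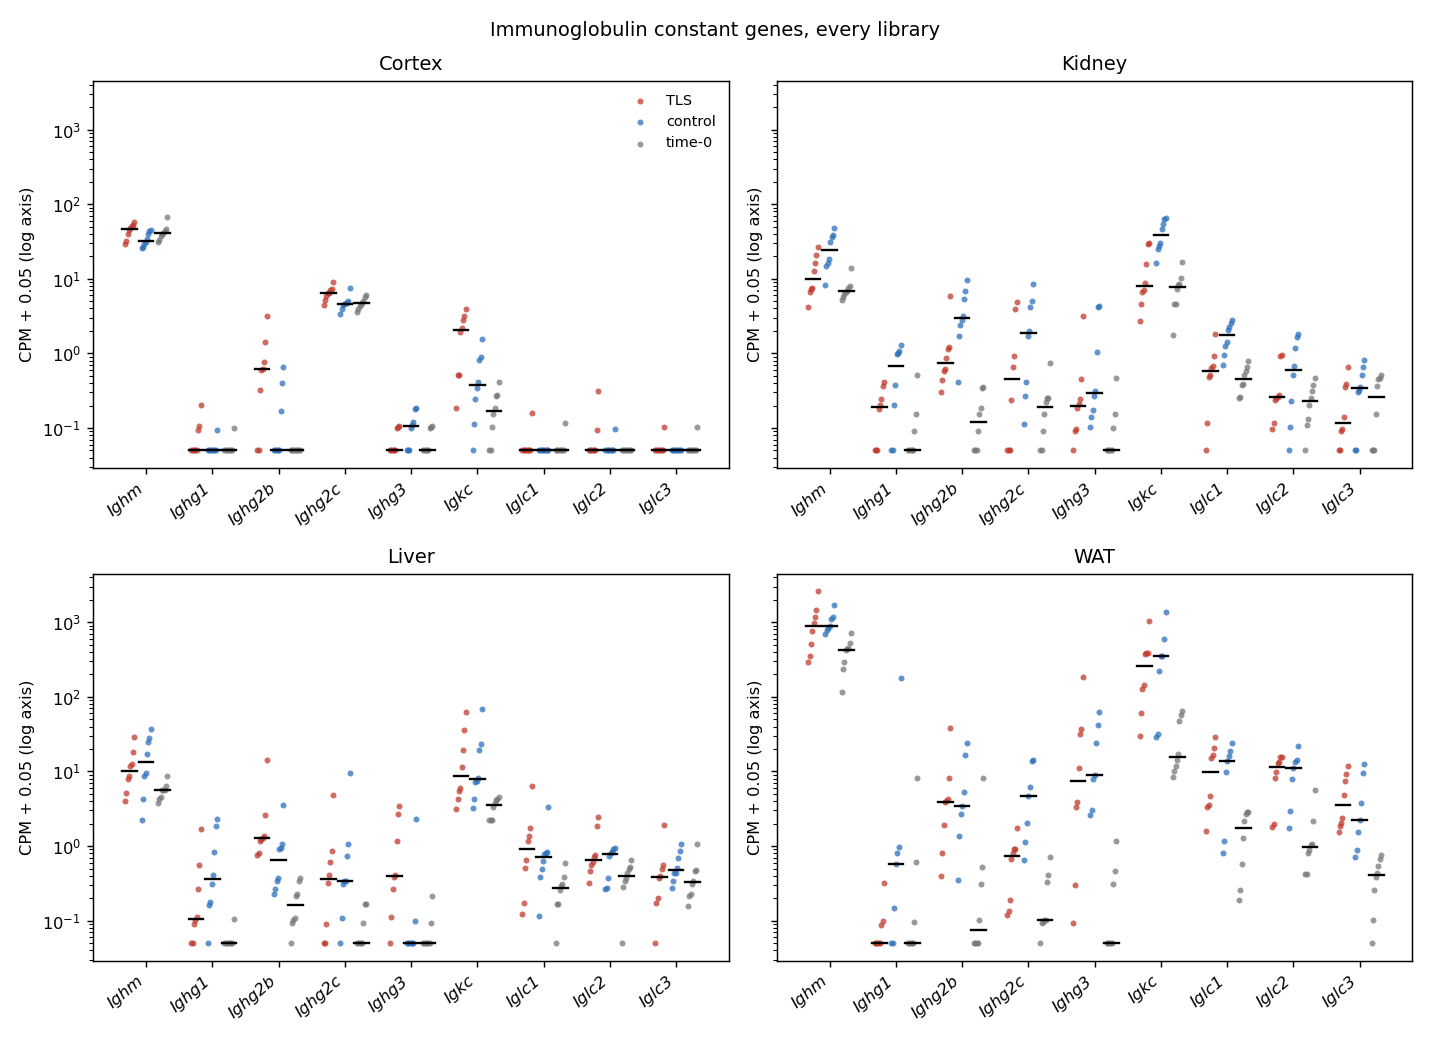
CPM plus 0.05, on a log axis, for each of the 9 genes in every library of the 4 tissues, with TLS (red), control (blue) and time-0 (grey) side by side and a bar at each group's median. Ighm and Igkc were the most abundant in WAT, the lambda genes were near 0 in cortex, and 1 control WAT library held 176.8 CPM of Ighg1.

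Levels of these genes differed widely between tissues. Over all groups, the mu gene Ighm had a median of 722 CPM in WAT, 39.9 CPM in cortex, 10.4 CPM in kidney and 8.20 CPM in liver. The single kappa constant gene Igkc had medians of 65.3 CPM in WAT, 13.0 CPM in kidney, 4.99 CPM in liver and 0.326 CPM in cortex. In a joint fit of all 95 libraries, Igkc was 8.20 ± 0.50 log2 units higher in WAT than in cortex (SE, adjusted p = 4.9e-27) and 3.05 ± 0.37 higher in WAT than in kidney (adjusted p = 5.6e-12). Liver and kidney, neighbours in that order, did not differ beyond the error for Igkc, with 0.32 ± 0.35 (adjusted p = 0.419). For Ighm the order of kidney and liver depends on the measure: the liver median was the lower one, but in the joint fit Ighm was 0.55 ± 0.21 higher in liver than in kidney (adjusted p = 0.016). Ighm was 4.18 ± 0.23 higher in WAT than in cortex and 1.38 ± 0.21 lower in kidney than in cortex, a log2 fold change of -1.38.

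Between tissues most genes differ, so these counts of members have a high background. In kidney against cortex 9 of 9 members were called, 7 higher and 2 lower, where 87.6% of all genes were called. In WAT against cortex 9 of 9 were called, 8 higher and 1 lower, with 85.9% of all genes called. In liver against cortex 8 were called, where 89.1% of all genes were, in WAT against kidney 7 (76.6% of all genes), in WAT against liver 6 (80.5%), and in liver against kidney 3 (74.1%). The lower ones in kidney and liver were Ighm and Ighg2c, and in WAT Ighg2c alone, at -2.62 ± 0.46 against cortex. The median of all genes was itself moved by -0.17 in liver against cortex and by 0.28 in WAT against liver.

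Per kilobase of exon, the scale on which genes can be set beside each other, Ighm was above Igkc by median in cortex and WAT and below it in kidney and liver. Ighm had a median of 21.2 CPM per kb in cortex and Igkc 0.612, and in WAT Ighm had 383 and Igkc 122.8. In kidney Igkc had 24.4 and Ighm 5.52. The ratio of Ighm to Igkc per kb had a median of 30.9 in the 21 cortex libraries with any Igkc count, against 0.232 in kidney, 0.343 in liver and 1.87 in WAT. Cortex Ighm and Ighg2c were also even across animals, with a coefficient of variation over 24 libraries of 25.4% and 26.1%, while Igkc varied by 133.5%. Among the gamma genes, Ighg2c was the highest in 24 of 24 cortex libraries. Of a list of 20 B cell genes, 6 passed the low-count filter in cortex. The list sum had cortex medians of 26.8 CPM in TLS, 22.4 CPM in control and 21.2 CPM in time-0 mice. Ms4a1, a gene of that list outside the 6 that passed, had a median of 0 CPM in cortex of TLS, control and time-0 mice. It is a single gene picked from the list, while the 6 that passed the filter held reads in cortex. Where the even cortex signal of Ighm and Ighg2c comes from was not tested.

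The main comparison of the study set TLS against control mice of the same age. In fits of each tissue alone no member was called: 0 of 3 in cortex, where 5.41% of all genes were called, 0 of 5 in kidney (0.231%), 0 of 4 in liver (1.95%) and 0 of 8 in WAT (0.00596%). At an unadjusted p below 0.05 stood 4 members in kidney, 3 in cortex, and 1 each in WAT and liver. Over all genes tested, that level held 1353 of 16005 in kidney and 3745 of 16609 in cortex. In WAT it held 1857 of 16784 genes and in liver 2383 of 13604. DESeq2 called 1 member in WAT and 0 in the other tissues, and limma voom called 3 in kidney and 0 in the others. The shares of all genes above are those of edgeR, and none is given for these tools. The joint fit of all 95 libraries, introduced above for the levels, called 2 members for TLS against control in WAT, Ighg1 and Ighg2c, where it called 3.21% of all genes. It called 0 in cortex (0.0144% of all genes), 0 in kidney (0.22%) and 0 in liver (10.6%). In kidney all 5 members tested in the fit of that tissue were lower in TLS than in control mice by point estimate.

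In kidney, Igkc ranged over 2.63, 7.94 and 29.7 CPM (lowest, median and highest) in TLS mice and over 16.3, 38.3 and 64.98 CPM in control mice. Ighm ranged over 4.11, 9.99 and 26.6 CPM in TLS mice and over 8.20, 24.6 and 47.6 CPM in control mice. The ranges overlapped for both genes, and 8 of 8 TLS libraries for Igkc and 7 of 8 for Ighm lay below the control median. The log2 fold change of Igkc was -1.63 ± 0.46 (edgeR adjusted p = 0.202), and that of Ighm was -1.05 ± 0.35 (adjusted p = 0.334). The median log2 fold change over the 5 tested members was -1.42, beside 0.01 over all genes tested.

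Kidney Ighg2b, the gamma 2b chain, had 0.251, 0.689 and 5.90 CPM (lowest, median and highest) in TLS mice and 0.365, 2.92 and 9.48 CPM in control mice. The highest TLS value belonged to A5DA, and the next was 1.15 CPM. With all libraries the log2 fold change was -1.57 ± 0.61 (adjusted p = 0.444), and without A5DA it was -2.54 (adjusted p = 0.0226), a call that no other library left out produced. Iglc1 stood at -1.42 ± 0.46 (adjusted p = 0.314) and Ighg2c at -1.06 ± 0.89 (adjusted p = 0.755). Beside these members, Jchain, which joins IgM and IgA polymers, fell by 2.32 on the log2 scale in TLS kidneys and was called.

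In WAT the largest fold changes between TLS and control mice were those of Ighg2c and Ighg1, and other members had wide errors. Ighg2c, the C57BL/6 counterpart of the gamma 2a chain, had 0.0696, 0.687 and 1.69 CPM in TLS mice and 0.602, 4.70 and 14.3 CPM in control mice. The ranges overlapped. Its log2 fold change was -3.28 ± 0.72 (edgeR adjusted p = 0.160), and of the fits of WAT alone DESeq2 called it. The joint fit gave -3.25 ± 0.78 (adjusted p = 0.00587), a call kept with 15 of 16 animals left out and lost without control animal D215 (-2.59, adjusted p = 0.0536). That fit was chosen for this comparison after the data were seen, and it shares the estimate of spread across tissues. In the fits of each tissue alone the common coefficient of variation was 0.144 in cortex and 0.390 in WAT. Ighg1, too low for the fit of WAT alone, stood at -8.90 ± 1.34 in the joint fit (adjusted p = 6.2e-06) and at -4.72 without control animal E329 (adjusted p = 0.0272). Its size depends on the prior count, since Ighg1 was at 0 in 5 of 8 TLS libraries. The other 7 tested members lay between -0.63 and 0.18, with standard errors as wide as 1.11 (Ighg2b), so these values do not show that the genes were unchanged. Ighm had 296, 877 and 2595 CPM in TLS mice and 686, 887 and 1690 CPM in control mice. Its fold change was -0.08 ± 0.40 (adjusted p = 0.964). Of 10 T cell genes in the same WAT libraries 0 were called, 8 had an unadjusted p below 0.05 and were higher, and their median log2 fold change was 1.54 beside 0.04 over all genes.

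In cortex all 3 tested members were higher in TLS mice by point estimate and none was called. Igkc passed the low-count filter there mainly through TLS libraries, so its direction was partly set by the filter. Igkc had 0.135, 2.02 and 3.85 CPM in TLS mice and 0, 0.326 and 1.52 CPM in control mice, with a log2 fold change of 1.87 ± 0.60 (adjusted p = 0.0649). It passed the threshold when control animal A123 or TLS animal B51B was left out, with adjusted p of 0.0297 and 0.0466. Ighg2c had 4.44, 6.38 and 8.86 CPM in TLS mice and 3.29, 4.60 and 7.41 CPM in control mice, a log2 fold change of 0.43 ± 0.15 (adjusted p = 0.0916), and passed without control animal A367 (0.0294). Ighg2b was too low to test in cortex, but its counts were uneven: 6 of 8 TLS libraries held reads, up to 3.15 CPM, against 3 of 8 control and 0 of 8 time-0 libraries. In the same cortex libraries receptors for IgG rose in TLS mice: 3 of 6 measured genes of receptors and transporters were called higher and 0 lower, namely Fcgr2b at 1.18 ± 0.26, Fcgr1 at 0.80 ± 0.20 and Fcgr3 at 0.72 ± 0.20. Of 6 measured myeloid genes 5 were also called higher there, and their part in the result was not tested. Nuclear RNAs differed between the same groups: of Malat1, Neat1 and Meg3 1 was called lower in TLS than in control mice and 2 lower in TLS than in time-0 mice, with median log2 fold changes of -0.75 and -0.96. Their summed share of counts averaged 0.273% in F and 0.268% in M TLS mice, 0.311% in F and 0.613% in M control mice, and 0.568% in F and 0.513% in M time-0 mice, and its part was not tested.

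In liver, Ighg2b had 0.716, 1.22 and 14.0 CPM in TLS mice and 0.177, 0.596 and 3.50 CPM in control mice, and the ranges overlapped. Its log2 fold change of 1.61 ± 0.66 was the only one with an unadjusted p below 0.05 (adjusted p = 0.201). Ighg2b passed the low-count filter mainly through TLS libraries, so this direction was partly set by the filter. The highest TLS value was that of A5DA, and the next was 2.60 CPM. Without A5DA the log2 fold change of Ighg2b was 0.44 (adjusted p = 0.685). Igkc, at 3.08, 8.71 and 63.1 CPM in TLS mice and 3.19, 7.77 and 68.9 CPM in control mice, had a log2 fold change of 0.07 ± 0.62 (adjusted p = 0.972), -0.80 without A5DA (adjusted p = 0.483) and 1.01 without control animal 5A66 (adjusted p = 0.362), which held the highest control value. Igha, the alpha chain gene, rose in the same TLS livers by 2.19 ± 0.41.

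Members too low to test are given by their values alone. Kidney Ighg1 had 0, 0.142 and 0.363 CPM (lowest, median and highest) in TLS mice, 0, 0.630 and 1.23 CPM in control mice and 0, 0 and 0.457 CPM in time-0 mice. Kidney Ighg3 reached 3.13 CPM in TLS mice, 4.21 CPM in control mice and 0.420 CPM in time-0 mice, with medians of 0.147, 0.240 and 0 CPM. All these ranges overlap, and the time-0 median was 0 for both genes. Kidney Iglc2 had medians of 0.208 CPM in TLS, 0.549 CPM in control and 0.178 CPM in time-0 mice, and Iglc3 stayed at or under 0.765 CPM in every kidney library. In liver, Ighg1 was at 0 in 2 of 8 TLS, 1 of 8 control and 7 of 8 time-0 libraries, and Ighg2c at 0 in 2, 1 and 5 of them. Liver Ighg3 had counts in 7 of 8 TLS libraries, 2 of 8 control libraries and 2 of 8 time-0 libraries. Liver Iglc2 had medians of 0.610 CPM in TLS, 0.727 CPM in control and 0.351 CPM in time-0 mice. In cortex, the lambda genes were at 0 in 22 of 24 libraries (Iglc1), 21 (Iglc2) and 22 (Iglc3), and Ighg1 in 19.

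**Figure D2:**
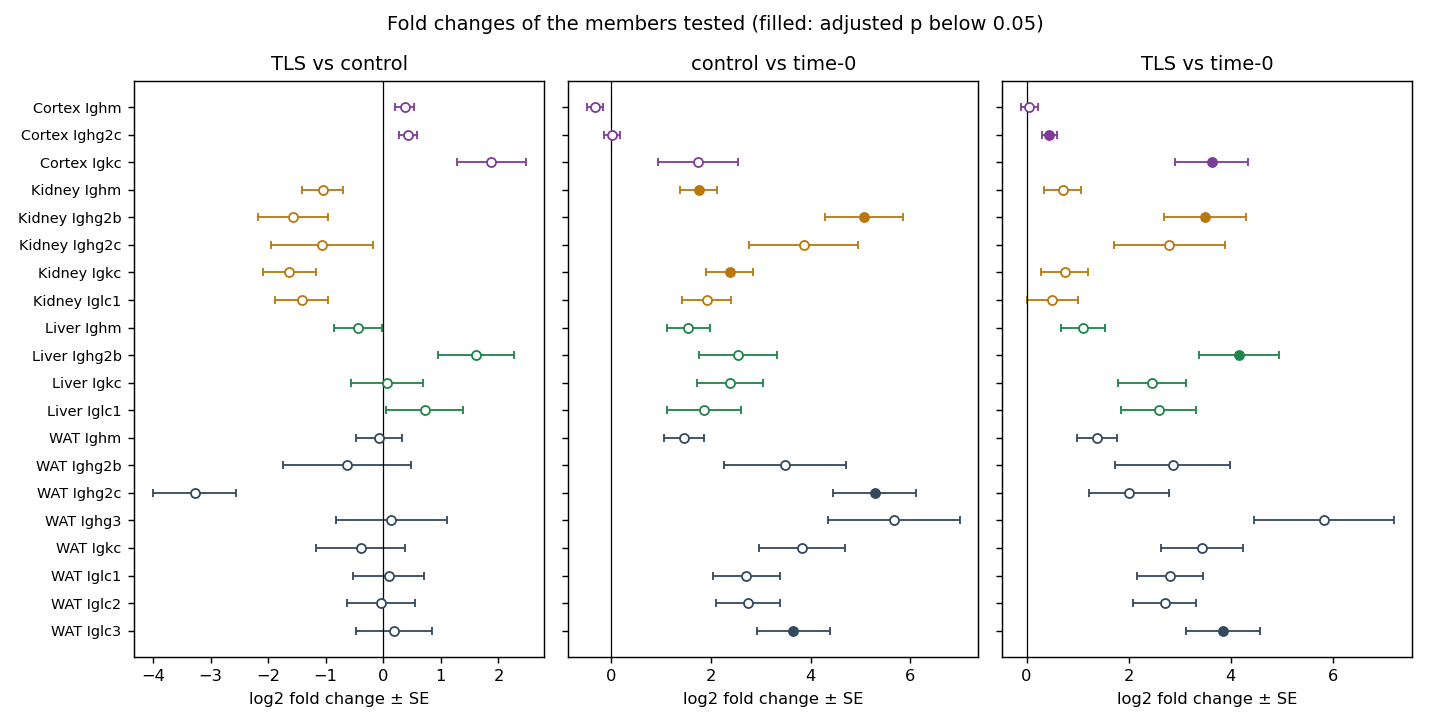
Log2 fold changes with standard errors of the members tested in each tissue, for TLS against control, control against time-0 and TLS against time-0 in the fit of that tissue alone, with filled points where the adjusted p was below 0.05. No point is filled for TLS against control, and in WAT all 8 members lie to the right of 0 in both comparisons with time-0 mice.

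The second comparison set control mice, 3 months older, against time-0 mice. Members were higher in the controls in kidney, liver and WAT by point estimate in every case tested. Several of them, such as kidney Ighg2b, liver Ighg2b and WAT Ighg2c, were too low in time-0 mice to pass the low-count filter there. They were tested through libraries of the other groups, so their direction was partly set by the filter. In kidney 3 of 5 were called, all higher, where 0.312% of all genes were called in either direction and 0.137% higher. In WAT 2 of 8 were called, both higher (0.161% of all genes in either direction and 0.131% higher), in liver 0 of 4 (0.529%) and in cortex 0 of 3 (21.2%). In liver all 4 members had an unadjusted p below 0.05, as did 2057 of the 13604 genes tested there. DESeq2 and limma voom each called 2 of the 4 members. The shares of all genes that these tools called are not given, so these counts have no background beside them. In cortex 1 member, Igkc, had an unadjusted p below 0.05, as did 5753 of 16609 genes, and neither tool called any member. Cortex Igkc, too, was too low in time-0 mice to pass the filter there.

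Kidney Ighg2b had 0.365, 2.92 and 9.48 CPM in control mice against 0, 0.0715 and 0.307 CPM in time-0 mice. Every control library was above every time-0 library. The log2 fold change was 5.07 ± 0.78 (adjusted p = 0.00265), and it was called with each of the 16 libraries left out. Because 3 of 8 time-0 libraries were at 0 and the group held 16 counts in all, the size of this fold change depends on the prior count.

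Kidney Igkc had 16.3, 38.3 and 64.98 CPM in control mice and 1.70, 7.73 and 16.7 CPM in time-0 mice, which overlap only at the highest time-0 library, T0_6. It rose by 2.38 ± 0.48 on the log2 scale (adjusted p = 0.0328). Ighm had 8.20, 24.6 and 47.6 CPM in control mice and 5.09, 6.78 and 14.0 CPM in time-0 mice, and rose by 1.76 ± 0.37 (adjusted p = 0.0386). Both calls were lost with 10 of 16 libraries left out one at a time, with adjusted p up to 0.0824 for Igkc and 0.102 for Ighm. Ighg2c (3.86 ± 1.09) and Iglc1 (1.92 ± 0.49) were not called, at adjusted p of 0.136 and 0.0944.

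In WAT the same comparison gave large fold changes with wide errors. Ighg2c had 0.602, 4.70 and 14.3 CPM in control mice and 0, 0.0520 and 0.653 CPM in time-0 mice, overlapping at a single time-0 library, and rose by 5.28 ± 0.83 (adjusted p = 0.00554). Iglc3, a lambda gene, had 0.669, 2.19 and 12.6 CPM in control mice and 0, 0.365 and 0.710 CPM in time-0 mice, and rose by 3.66 ± 0.74 (adjusted p = 0.0385). The Iglc3 call was lost with 10 of 15 libraries left out one at a time, up to an adjusted p of 0.156. Igkc had 29.1, 349 and 1380 CPM in control mice and 8.30, 15.6 and 65.3 CPM in time-0 mice, with a log2 fold change of 3.83 ± 0.85 (adjusted p = 0.0679). Ighg3, a gamma chain linked to responses to carbohydrate antigens, had 2.53 to 63.3 CPM in control mice and 0 to 1.13 CPM in time-0 mice, which did not overlap, and stood at 5.67 ± 1.31 (adjusted p = 0.0835). Ighm, Ighg2b, Iglc1 and Iglc2 lay between 1.46 and 3.49 and were not called. DESeq2 called 7 of the 8 and limma voom all 8. Their shares of all genes called are not given, and the shares above are those of edgeR.

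In liver, Ighg2b had 0.177 to 3.50 CPM in control mice and 0 to 0.325 CPM in time-0 mice, at 2.55 ± 0.78 (adjusted p = 0.151), and Igkc, Ighm and Iglc1 were between 1.55 and 2.39 (adjusted p from 0.112 to 0.247). In cortex Igkc stood at 1.75 ± 0.80 (adjusted p = 0.122), Ighm at -0.32 ± 0.16 and Ighg2c at 0.02 ± 0.15.

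The third comparison set TLS mice against time-0 mice and shares its time-0 libraries with the second. Cortex Igkc, kidney and liver Ighg2b and WAT Iglc3 were too low in time-0 mice to pass the filter there. Their direction was therefore also partly set by the filter. Called members, all higher, were 2 of 3 in cortex (35.7% of all genes called, 18.1% higher), 1 of 5 in kidney (0.681%, 0.337% higher), 1 of 4 in liver (1.34%, 0.588% higher) and 1 of 8 in WAT (0.226%, 0.161% higher). Cortex Igkc, at 0.135 to 3.85 CPM in TLS mice and 0 to 0.363 CPM in time-0 mice, rose by 3.62 ± 0.72 (adjusted p = 0.000442). Ighg2c rose in cortex by 0.45 ± 0.15 (adjusted p = 0.0213), a call lost without TLS animal B4B9 (0.0518).

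Outside the brain, the Ighg2b and Iglc3 values were as follows. Kidney Ighg2b, at 0.251 to 5.90 CPM in TLS mice and 0 to 0.307 CPM in time-0 mice, rose by 3.50 ± 0.80 (adjusted p = 0.0392). The call was lost with 11 of 16 libraries left out, A5DA among them, up to 0.0857. Liver Ighg2b, at 0.716 to 14.0 CPM in TLS mice and 0 to 0.325 CPM in time-0 mice, did not overlap, rose by 4.16 ± 0.78 (adjusted p = 0.00562) and was called with each of the 16 libraries left out. In the same livers 3 of 14 measured B cell genes were called higher in TLS than in time-0 mice, 6 of 8 T cell genes had an unadjusted p below 0.05 and a positive fold change (list median 1.13), and the myeloid median was 1.20. WAT Iglc3, at 1.48 to 11.9 CPM in TLS mice and 0 to 0.710 CPM in time-0 mice, did not overlap and rose by 3.84 ± 0.73 (adjusted p = 0.0284), a call lost with 5 of 16 libraries left out. In the same WAT libraries 10 of 10 T cell genes were higher at an unadjusted p below 0.05, with 0 called and a median of 2.08, and the median of 6 lymph node and stroma genes was 1.32. In kidney, 5 of 9 T cell genes and 4 of 7 myeloid genes were higher in TLS than in time-0 mice at that level, with medians of 1.25 and 1.07. At that level, in either direction, stood 2021 of 13604 genes in liver, 2196 of 16784 in WAT and 2420 of 16005 in kidney. All these marker lists include A5DA, and their part in the results was not tested. In kidney the log2 fold changes of Igkc (0.75 ± 0.46, adjusted p = 0.439), Ighm (0.71 ± 0.36, adjusted p = 0.357) and Iglc1 (0.50 ± 0.50) were not called. The other WAT members lay between 1.38 and 5.81 (adjusted p from 0.0632 to 0.265).

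Between M and F animals 0 members were called in each tissue, where 46.8% of all genes were called in kidney, 11.8% in WAT, 6.4% in liver and 0.126% in cortex. At an unadjusted p below 0.05 stood 2 members in WAT and 0 elsewhere, and DESeq2 called 1, WAT Iglc1, at -1.40 ± 0.53 (edgeR adjusted p = 0.0902). Of all genes tested in WAT, 4123 of 16784 stood at that level. The share of all genes that DESeq2 called is not given. A sex by treatment interaction was called for 0 members by edgeR and 0 by limma voom, where 5.08% of all genes were called in cortex, 0.00735% in liver and 0.0% in kidney and WAT. Cortex Ighg2c, the only member with an unadjusted p below 0.05, had a difference of -0.76 ± 0.27 (adjusted p = 0.0953). In cortex 3730 of 16609 genes stood at that level.

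Whether the TLS effect differed between tissues was tested in the joint fit. It called 1 of 9 members, Ighg1, a gamma chain of type 2 immune responses (adjusted p = 0.00223), where 4.39% of all genes were called. The call rests on control animal E329. Its WAT library held 2611 Ighg1 counts, or 176.8 CPM, and the next control library 0.913 CPM, while the highest TLS library had 0.274 CPM and the highest time-0 library 8.16 CPM. Leaving out A5DA gave 4 called members, Ighg1, Ighg2b, Ighg2c and Igkc. Without E329 the adjusted p of Ighg1 was 0.267 and 0 members were called. With the animal as a replicate block, Ighg1 had an adjusted p of 0.118 and Igkc was called instead, at 0.018. The shares of all genes called without A5DA, without E329 or with the block are not given. These counts of members therefore have no background beside them. The TLS effect on Igkc in the joint fit was a log2 fold change of 1.87 ± 0.81 for cortex, -1.63 ± 0.61 for kidney, 0.0541 ± 0.60 for liver and -0.37 ± 0.62 for WAT. Without the block its adjusted p was 0.106, and it was called with 2 of 16 animals left out.

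**Figure D3:**
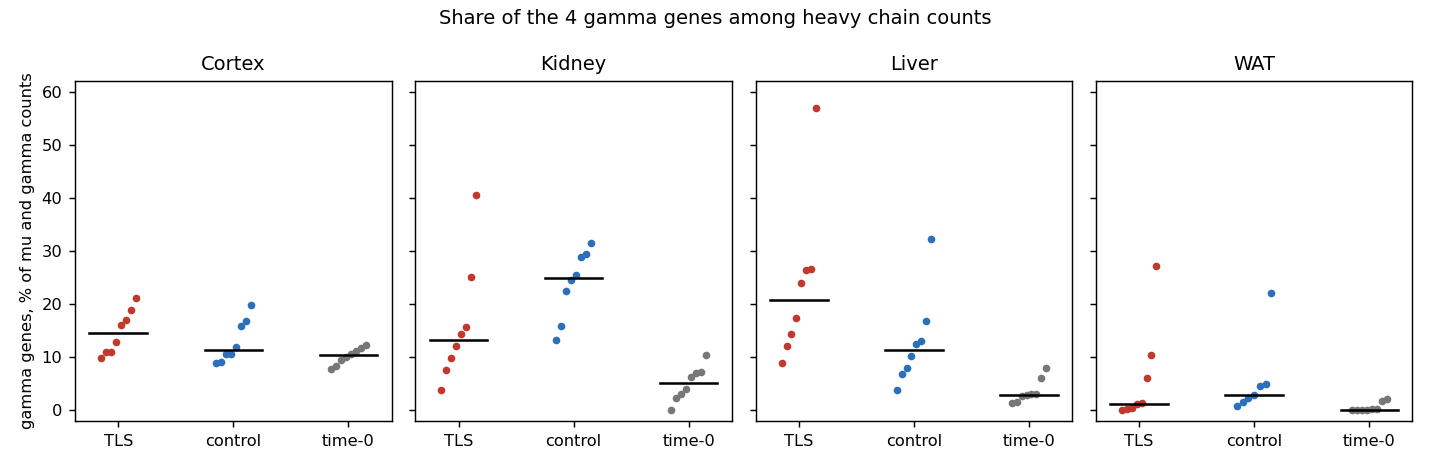
Share of the 4 gamma genes in the counts of the mu and gamma genes, in percent, for each library of TLS, control and time-0 mice in the 4 tissues, with a bar at the group median. In kidney the medians were 13.2%, 24.96% and 5.22%, and in every tissue the time-0 median was the lowest.

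Counts were also divided among the chains within each library, which removes differences in how much immunoglobulin RNA a library holds. The gamma share of mu and gamma counts had medians of 13.2% in TLS kidneys, 24.96% in control kidneys and 5.22% in time-0 kidneys. In liver it was 20.7% in TLS, 11.4% in control and 2.91% in time-0 mice. In WAT, where Ighm was so abundant, it was 1.22%, 2.90% and 0.144% in the same order of groups, and in cortex 14.5%, 11.3% and 10.3%. These shares are descriptions of the same counts and were not tested. Single libraries went far beyond the medians: the highest were 56.8% in TLS liver (next 26.5%) and 40.6% in TLS kidney (next 25.1%), both from A5DA, and 27.2% in TLS WAT, from B51B (next 10.3%).

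The lambda share of light chain counts had a median of 7.37% in TLS kidneys, 5.75% in control kidneys and 11.4% in time-0 kidneys, and in WAT 10.7%, 9.22% and 9.51%. The gamma gene with the most counts varied between animals. In kidney it was Ighg2b in 6 of 8 TLS and 5 of 8 control libraries, and in liver Ighg2b in 7 of 8 TLS and 4 of 8 control libraries. In WAT it was Ighg3 in 4 and Ighg2b in 4 of 8 TLS libraries, and in controls Ighg3 in 4, Ighg2c in 2 and Ighg1 in 1 of 7.

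**Figure D4:**
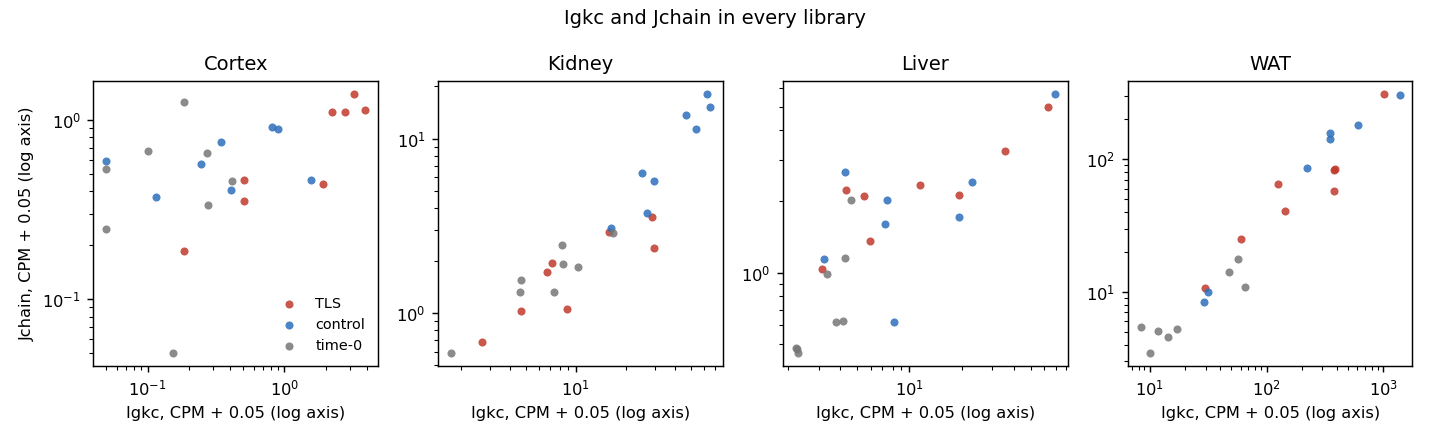
Igkc on the x axis against Jchain on the y axis, each in CPM plus 0.05 on log axes, for every library of TLS, control and time-0 mice in the 4 tissues. In kidney the control libraries had the highest Jchain median, 8.81 CPM, and in WAT the time-0 libraries the lowest, 5.30 CPM.

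The genes whose pattern was most like that of Igkc were found from deviations of log2 CPM from the mean of the same group and sex. In WAT, over 23 libraries, the closest was Jchain with a Pearson r of 0.963, and in kidney, over 24 libraries, Jchain again with 0.902, followed by Ighm with 0.874 and Igha with 0.859. The closest non-immunoglobulin genes in kidney after Jchain were F730043M19Rik, Ccr2, Bcl2a1a and Rgs6. In WAT they were Lax1, Zc3h3, Samd1 and Mitd1. In liver the closest was Lyl1 with 0.860, and Jchain had 0.756. In cortex the closest was Cdc42bpg with 0.839, while Ighm had -0.424 and Ighg2c -0.141. Points share libraries and depth, so these values are descriptive.

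The same animal's Igkc was compared between tissues as well, using the same deviations and 6 pairs of tissues. Kidney and WAT went together over 23 animals, with a Pearson r of 0.685 (permutation p = 0.00058, adjusted p = 0.00348) and a Spearman rho of 0.697 (permutation p = 0.00042, adjusted p = 0.00252). Without the 2 animals farthest from the median, r was 0.626. In kidney the labels give time-0 animals 4 and 5 the opposite sex to their other tissues, and r without them was 0.699. The other 5 pairs had r between -0.250 and 0.257, with an adjusted permutation p of 0.596.

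Other genes of antibody production were taken as lists. Of the plasma cell and secretion list of 22 genes, 1 of 19 measured in kidney was called lower in TLS than in control mice and 1 higher in control than in time-0 mice, and both were Jchain, which rose by 2.42 ± 0.38 in the second comparison. The list medians were 0.11 and 0.01. In WAT 1 of 22 was called higher in control than in time-0 mice, Jchain, at 3.94 ± 0.75, and 1 in TLS against time-0 mice, Jchain, at 3.36 ± 0.71. Of the B cell list of 20 genes, 0 of 19 measured in WAT were called in either comparison with time-0 mice, although their median log2 fold changes were 1.15 in control mice and 1.14 in TLS mice. At an unadjusted p below 0.05, 8 and 9 of them were higher. In either direction, 1953 and 2196 of the 16784 genes tested stood at that level. In kidney, the alpha heavy chain gene Igha had 4.85 to 14.1 CPM in TLS mice, 28.7 to 69.9 CPM in control mice and 3.77 to 17.7 CPM in time-0 mice. Its log2 fold change was -2.02 ± 0.25 in TLS against control mice (adjusted p = 0.000106) and 2.003 ± 0.253 in control against time-0 mice. For receptors and transporters in kidney, 1 of 10 was called higher in TLS than in control mice, Pigr, the epithelial receptor that carries polymeric IgA and IgM into urine and other fluids. Class switching genes gave 0 calls of 8 in kidney in each of these comparisons and 0 of 9 in WAT. Of the survival and homing factors, 1 of 8 was called in kidney, Cxcl12, which draws plasma cells to their niches and rose by 0.83 ± 0.18 in control against time-0 mice.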

How the data were processed

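Polyadenylated RNA was sequenced on a NovaSeq instrument from PBS-perfused tissues, per the labels' protocols. STAR 2.7.10 and the builds mm10 (GRCm38) are named in the submitters' processing notes, as are DESeq2 and DESeq. The authors deposited raw counts per gene and library, whose annotation and strand setting are not given in the sources used here. Counting with featureCounts is named in the file header. The word corrected in the file's first line has no explanation there. Members and gene lists were chosen with earlier results of these data known. Named genes were the members, up to 4 genes per list with the smallest p, and the 5 non-immunoglobulin genes most like Igkc.

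Tests used edgeR 4.0.16 in R 4.3.3 (filterByExpr with a minimum count of 10, TMM scaling, robust quasi-likelihood fit on all 3 groups of a tissue, sex as covariate), adjusted by Benjamini-Hochberg. Tissue differences came from 1 joint fit of 95 libraries. The same animals gave all tissues, which pairs the libraries by design, and a second joint fit took the animal as a replicate block. Deviations from the group mean correlated at a mean r of 0.0456 over 141 same-animal pairs of libraries, and at -0.0151 over 429 pairs of unlike animals. Alternatives were RLE scaling, no filter, no sex covariate, non-robust fits, only the groups compared, limma 3.58.1 voom, DESeq2 1.42.0 and leaving out each library. Correlations used 100000 permutations within group and sex. Total counts per library had tissue medians between 16951787 (liver) and 20092294 (WAT). Labels describe separate animals. The scripts were checked on simulated counts. Sequences were read from the GRCm38 reference.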

Additional observations from a re-analysis of the deposited data

Results flagged for a closer look

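With 9 members, 4 tissues and 3 groups, 23 groups of libraries held a value far from the rest of its group by Dixon's gap test on log2 CPM, which flags about 1 in 20 groups by chance. In 8 of them every other library of the group was at 0, and counts this low make such gaps common.

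Animal A5DA gave 4 of the values in TLS mice: 5.90 CPM of Ighg2b in kidney (next 1.15), 3.13 CPM of Ighg3 in kidney (next 0.410), 14.0 CPM of Ighg2b in liver (next 2.60) and 0.274 CPM of Ighg1 in WAT (next 0.04995). In control mice, E329 had 176.8 CPM of Ighg1 in WAT (next 0.913) and 5A66 had 2.25 CPM of Ighg3 in liver (next 0.0481). In time-0 mice, T0_6 had 8.16 CPM of Ighg1 in WAT (next 0.561), 14.0 CPM of Ighm in kidney (next 7.97) and 0.420 CPM of Ighg3 in kidney (next 0.104), and it was the lowest for Iglc2 in liver, at 0 (next 0.235). T0_2 had 8.24 CPM of Ighg2b in WAT (next 0.470) and, in liver, 0.163 CPM of Ighg3 (next 0.0441) and 0.0542 CPM of Ighg1 (all others 0). T0_5 had 0.457 CPM of Ighg1 in kidney (next 0.104).

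In cortex the values were all below 0.3 CPM. TLS animal B03E had 0.156 CPM of Ighg1 (next 0.0554), 0.260 CPM of Iglc2 (next 0.0444) and 0.0519 CPM of Iglc3 (all others 0), and TLS animal B4B9 had 0.111 CPM of Iglc1 (all others 0). Control animal A367 had 0.0449 CPM of Ighg1 and control animal A123 had 0.0461 CPM of Iglc2, each the only library of its group above 0. The same held for time-0 animals T0_8 (0.0512 CPM of Ighg1), T0_7 (0.067 CPM of Iglc1) and T0_3 (0.0537 CPM of Iglc3).

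The TLS effect on Ighg1 differed between tissues with an adjusted p of 0.00223, through the WAT library of control animal E329 described above.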

How the results depend on the processing

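Counts of called members depend on the tool and on single libraries. For the alternatives other than the joint fit, the share of all genes called is not given, so those counts have no background beside them. Against 0, limma voom called 3 members for TLS against control in kidney, while in WAT DESeq2 called 1 and the joint fit of all tissues, an alternative chosen after seeing the data, called 2. Control against time-0 gave 1 member in kidney and 1 in WAT without the low-count filter (3 and 2 with it), 8 (voom) and 7 (DESeq2) in WAT, and in liver 1 without the filter, 1 with only the 2 groups, 2 (voom) and 2 (DESeq2). TLS against time-0 gave 1 in cortex with only the 2 groups, 0 in kidney without the filter, without the sex covariate or with only the 2 groups, 2 in liver with robust fitting off and 2 with DESeq2, and in WAT 0 without the filter, 2 without the sex covariate, 6 (voom) and 6 (DESeq2). DESeq2 called 1 member for M against F in WAT, and voom 3 for the tissue difference.

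With a replicate block on the animal, the tissue difference still counted 1 member, but it was Igkc (adjusted p = 0.018, and 0.0186 with kidney time-0 animals 4 and 5 exchanged) in place of Ighg1. The WAT against kidney level counted 6 members with the block and 7 without, and it changed no other level count.

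Leaving out 1 library at a time, the counts ranged for TLS against control from 0 to 1 in cortex and kidney and were 0 in liver and WAT, for control against time-0 from 1 to 3 in kidney, 0 to 1 in liver and 1 to 4 in WAT, and 0 in cortex, for TLS against time-0 from 1 to 2 in cortex, 0 to 1 in kidney, 1 to 3 in liver and 0 to 5 in WAT, for the sex difference of the TLS effect 0 in all 4 tissues, and for the tissue difference from 0 to 4 with each animal left out. Kidney calls of Igkc and Ighm in control against time-0 were lost without control animals 983B, 9916, A123 or E329 or time-0 animals 1, 2, 3, 4, 5 or 8. The kidney Ighg2b call of TLS against time-0 was lost without A5DA, B23B, B4B9 or any time-0 animal. The WAT Iglc3 call was lost in control against time-0 without 983B, A123, D215, E329 or time-0 animals 1, 2, 3, 4, 7 or 8, and in TLS against time-0 without B4B9 or time-0 animals 2, 3, 7 or 8.

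Calls were gained for TLS against control in cortex without A367 (Ighg2c) and without A123 or B51B (Igkc), and in kidney without A5DA (Ighg2b). They were gained for control against time-0 without 9BA4 in liver (Ighm) and, in WAT, without T0_5 (Ighg3), A367 (Igkc) or T0_6 (Igkc, Iglc2), and for TLS against time-0 without 47BE in liver (Igkc, Iglc1) and, in WAT, without 47BE, DDF3, T0_5 or T0_6, which gained between them Ighg3, Igkc, Iglc1 and Iglc2.

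Directions turned only for members that were not called. For TLS against control under other settings, these were Igkc (-0.21) and Iglc1 (-0.44) in liver with voom, and in WAT Ighg2b (0.0256 without the sex covariate, 0.52 with voom), Ighg3 (-0.21 with only the 2 groups, -0.94 with voom), Iglc1 (-0.0371 without the sex covariate) and Iglc2 (0.0333 with only the 2 groups, 0.0643 with voom).

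Leaving out 1 library, the fold changes that turned for some library ranged in TLS against control in liver from -0.69 to 0.0658 (Ighm), -0.80 to 1.01 (Igkc) and -0.27 to 1.42 (Iglc1). In WAT they ranged from -0.36 to 0.12 (Ighm), -1.28 to 1.18 (Ighg2b), -0.91 to 0.47 (Ighg3), -1.05 to 0.24 (Igkc), -0.25 to 0.61 (Iglc1), -0.26 to 0.22 (Iglc2) and -0.31 to 0.74 (Iglc3). In cortex they ranged from -0.11 to 0.0957 for Ighg2c in control against time-0 and from -0.0228 to 0.20 for Ighm in TLS against time-0. The cause was not tested. Low counts limit the gamma and lambda genes most.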
